A study of Mus musculus with 36 samples.

Results

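Integrins are the cell-surface receptors through which cells hold on to matrix and to each other, and 10 integrin genes of bone and myeloid cells were followed here through 36 RNA-seq libraries of mouse bone cell cultures. The genes were picked by name: Itgav, Itgb3 and Itgb5 (the αv chain and its β3 and β5 partners), Itgam, Itgax, Itgal and Itgb2 (the leukocyte β2 family), and Itga4, Itga5 and Itgb1 (α4, α5 and their shared β1 partner). All 10 were found among the 30205 genes of the series, each under 1 Ensembl gene, and all 10 passed the filter on low counts in every comparison. The values of a gene are the sums over its transcripts, as counts and as TPM, a level corrected for transcript length and library size.

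The cultures came from 20-week-old mice that were either wild type (WT) or lacked the microRNA gene Mir324 (null), with 6 libraries in each of 6 groups. Bone marrow macrophages (BMM) were kept for 5 days in M-CSF at 30 ng/mL, and the cultures labelled osteoclasts (OC) had RANK-L at 50 ng/mL beside the same M-CSF for those 5 days. Cultures labelled osteoblasts (OB) grew out of collagenase-treated bone chips and stood for 18 days in medium with 2 mM β-glycerophosphate and 50 µg/mL ascorbic acid. No promoter, Cre or strain is named for the null allele. The labels do not say whether the libraries of a group came from separate mice, so the p-values measure the spread between these libraries, which may be technical. No value of Mir324 is used below, and the genotypes are therefore taken from the labels alone.

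An integrin is a pair of 1 α and 1 β chain, and the pair decides what the cell can bind. αvβ3 reads the RGD motif of bone matrix proteins such as osteopontin and is the main integrin by which osteoclasts seal onto bone, while αvβ5 is typical of their precursors. The β2 pairs are confined to blood cells: αLβ2 (LFA-1) binds ICAMs, and αMβ2 (Mac-1) and αXβ2 bind complement fragments and many other ligands. α4β1 binds VCAM-1 and fibronectin, and α5β1 is the classical fibronectin receptor of stromal cells and macrophages alike.

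The deleted microRNA is shown first, since it is what separates the genotypes. Its 2 mature strands, from RefSeq on GRCm38.p6 at chr11:70012060-70012082 and chr11:70012095-70012114 (plus strand), are given 5′ to 3′ with the seed (bases 2 to 8) in capitals.
mmu-miR-324-5p: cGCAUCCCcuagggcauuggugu
mmu-miR-324-3p: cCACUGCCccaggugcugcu
Only Itga4, of the 10 genes, held a match to either seed (GGGATGC or GGCAGTG, read on the transcript's strand) in its longest annotated 3′ UTR, which was also the longest of the 10 at 6511 bases. The 29 bases around each match, at bases 1840 to 1846 and 5422 to 5428 of that UTR, have the 7 matching bases in capitals.
Itga4 UTR, miR-324-5p match: tatatttttaaGGGATGCttttttgtgta
Itga4 UTR, miR-324-3p match: aggtgttggggGGCAGTGaatttttatct
Among 13718 genes with an annotated 3′ UTR, 8.67% held the first match and 15.7% the second, with no correction for UTR length. A match is a stretch of letters and not a shown target site. The other 9 genes had 3′ UTRs of 449 to 3584 bases without a match.

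The genes sit on 7 chromosomes of GRCm38. Itgal (chr7:127296260-127335138), Itgam (chr7:128062640-128118491) and Itgax (chr7:128129547-128150657) lie on the same strand of chromosome 7, where Itgam and Itgax are 11055 bases apart. Itga4 (chr2:79255426-79333123) and Itgav (chr2:83724397-83806916) share chromosome 2. Itgb2 is at chr10:77530252-77565708, Itgb3 at chr11:104608000-104670476 and Itgb5 at chr16:33829665-33949338. Itga5 lies at chr15:103344286-103366763 on the minus strand and Itgb1 at chr8:128685654-128733200. Exons of Itgam overlap those of Gm49368 on the same strand, and exons of Itga4 overlap those of Cerkl on the other strand. Both partners had few counts, with means of 49.0 per library against 5088 for Itgam and 27.5 against 1220 for Itga4.

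For Itgb3, Itgal and Itgb2 no RefSeq promoter was at hand. The other 7 of the 10 genes had RefSeq promoters (250 bases before to 50 after the start, GRCm38.p6, plus strand except for Itga5). Those of Itgav, Itgam and Itgax are printed because these genes moved with RANK-L or genotype in different ways, and because Itgam and Itgax are neighbours. Capitals mark the core bound by the myeloid factor PU.1 (GAGGAA, or TTCCTC on the other strand) and the AP-1 motif (TGANTCA), both searched on both strands with no overlap between them here.
Itgav promoter, chr2:83724147-83724446: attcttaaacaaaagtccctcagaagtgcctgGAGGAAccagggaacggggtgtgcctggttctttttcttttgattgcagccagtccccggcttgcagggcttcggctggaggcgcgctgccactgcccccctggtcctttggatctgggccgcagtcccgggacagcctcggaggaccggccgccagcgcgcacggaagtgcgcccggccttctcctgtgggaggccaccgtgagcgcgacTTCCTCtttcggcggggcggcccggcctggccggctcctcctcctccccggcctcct
Itgam promoter, chr7:128062390-128062689: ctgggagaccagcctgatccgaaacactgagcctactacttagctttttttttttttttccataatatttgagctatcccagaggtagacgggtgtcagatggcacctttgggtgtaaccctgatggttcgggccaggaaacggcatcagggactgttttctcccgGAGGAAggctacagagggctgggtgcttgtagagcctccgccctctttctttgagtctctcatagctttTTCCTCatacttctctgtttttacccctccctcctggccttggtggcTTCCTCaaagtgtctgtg
Itgax promoter, chr7:128129300-128129599: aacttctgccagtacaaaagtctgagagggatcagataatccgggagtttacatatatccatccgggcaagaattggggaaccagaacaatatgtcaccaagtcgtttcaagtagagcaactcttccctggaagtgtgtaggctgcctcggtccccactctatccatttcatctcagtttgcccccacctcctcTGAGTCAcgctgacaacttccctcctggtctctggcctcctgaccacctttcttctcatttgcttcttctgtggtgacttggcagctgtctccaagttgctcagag
The PU.1 core occurred 3 times in the Itgam window, 2 times in that of Itgav, and 1 time each in those of Itga5 and Itgb1, against 28.3% of 32851 mouse promoters with at least 1. Of the 7 windows, the AP-1 motif was found in that of Itgax only, against 7.81% of promoters. Neither was found for Itga4 or Itgb5, which says only that these letters are not in those windows.

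Each library held 14118972 to 26347581 counts. No libraries were merged, since the chi-square per gene was at least 3.39 even for the most alike pair of a group. Defining markers fitted the labels in WT: the summed level of 10 osteoclast genes had a median of 31420 CPM (counts scaled to library size by TMM) in WT OC against 261 in WT BMM, and 10 osteoblast genes reached 57600 CPM in WT OB. Null OC libraries held 445 to 788 CPM of the osteoclast genes, with Calcr, the calcitonin receptor, at 0 in all 6, and 13130 to 18220 CPM of 10 macrophage genes, where WT OC held 6043 to 6419. OB cultures were mixed, since WT OB held a median of 6025 CPM of macrophage genes and 4873 CPM of osteoclast genes, and in null OB these stood at 3963 and 5785 CPM. The 6 megakaryocyte genes, mainly Pf4, summed to a median of 217 CPM in WT BMM and 1246 in null BMM, and to 31.8 in WT OC and 993 in null OC. Osteoblast genes summed to 10.6 to 28.9 CPM in WT BMM and 53.9 to 127.0 in null BMM, and to 13.4 to 15.6 in WT OC and 56.1 to 267 in null OC. Col1a1 and Col1a2 made up most of the null sums, with medians of 53.3 and 15.4 CPM in BMM and 73.2 and 13.7 in OC. Alpl, Bglap and Bglap2 reached at most 0.381 CPM in any BMM or OC library, and 1 null OC library held 37.3 CPM of Ibsp (group median 0.0618). Only 4 of the 10 could be tested, with 3 higher and 1 lower in null BMM, and 2 higher in null OC. Over all genes 27% were higher and 25.4% lower in null BMM, and 32.4% higher in null OC. Neutrophil genes summed to 2.71 to 4.32 CPM in WT BMM and 8.44 to 21.2 in null BMM, and to 4.18 to 5.06 in WT OC and 8.32 to 12 in null OC, with Elane at 0 in all of these libraries. Only 2 of the 10 neutrophil genes could be tested, with 1 higher in null BMM, and 1 higher and 1 lower in null OC. Cxcr2 went the other way from the sum in OC, at 4.06 to 4.93 CPM in WT and 2.18 to 3.77 in null. For each of these 3 lists the genotypes did not overlap in BMM or in OC, and the part of these cells in the integrin results was not tested. In bulk RNA, fewer cells of a type and less RNA per cell cannot be told apart.

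**Figure D1:**
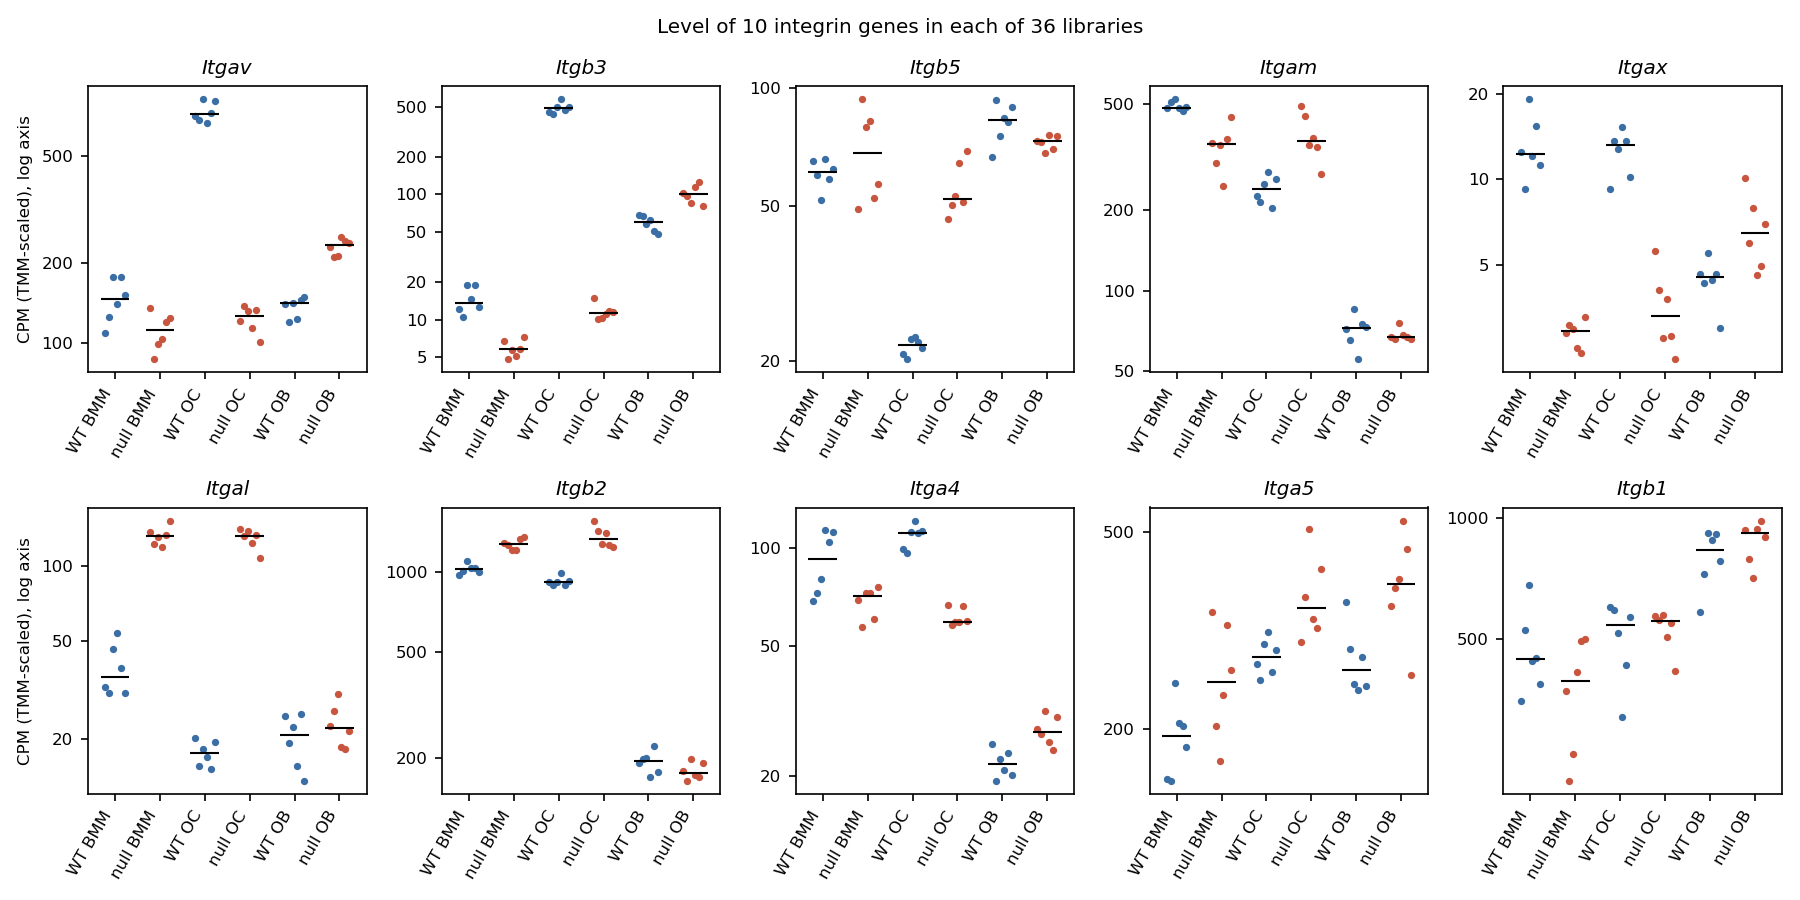
Level of each of the 10 integrin genes in every library, in CPM on a log axis, by group (points are libraries, blue WT and red null, and black lines are medians). Itgb3 and Itgav stand highest in WT OC, whose 6 libraries lie above all others, while Itgal stands highest in null BMM and null OC.

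Itgb3, the β3 chain, ranged more widely than any other of the 10 genes. Its CPM (lowest, median, highest of 6 libraries) were 10.5, 13.6 and 19.1 in WT BMM and 435, 484 and 575 in WT OC. The same values were 4.83, 5.79 and 7.24 in null BMM and 10.2, 11.4 and 15.0 in null OC. All WT OC libraries lay far above all others, and the null OC libraries lay within or just below the range of WT macrophages without RANK-L. With RANK-L, Itgb3 rose 33.3-fold in WT (log2 fold change 5.06, SE 0.14, edgeR quasi-likelihood adjusted p = 3.61e-21) and 1.98-fold in null (0.99, SE 0.14, adjusted p = 3.04e-04). Those responses differed by -4.07 in log2 units (edgeR adjusted p = 9.31e-16, SE 0.19). The RANK-L and genotype comparisons share libraries, here and for the genes that follow. Null OC thus held 41.4-fold less Itgb3 than WT OC (log2 fold change -5.37, SE 0.10, adjusted p = 1.74e-16), beside 10 of 10 osteoclast markers lower and 8 of 10 macrophage markers higher. Over all genes 33.1% were lower and 32.4% higher in null OC. The part of cell make-up in the Itgb3 result was not tested.

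Without RANK-L the β3 chain was already lower in null macrophages, 2.44-fold (log2 fold change -1.29, SE 0.16, edgeR adjusted p = 7.69e-06), with no overlap between the 6 and 6 libraries. In OB cultures the order was the opposite. Itgb3 had CPM of 48.5, 60.02 and 68.1 in WT OB and 80.1, 100.1 and 124.8 in null OB, again without overlap. That was a 1.70-fold rise (log2 fold change 0.76, SE 0.12, adjusted p = 2.82e-04), and it was 0.50 and still past the threshold when each library's trend with transcript length and GC content was taken out (the length and GC offset). Of 10 osteoclast markers, 5 were also higher in null OB and of 10 macrophage markers 8 were lower. Over all genes 15.5% were higher and 16.9% lower there, and the part of these markers was not tested. The genotype effect in OB differed from that in OC by 6.15 (SE 0.19, adjusted p = 4.15e-25) and from that in BMM by 2.07 (SE 0.19, adjusted p = 2.68e-11).

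Itgav, the αv chain that pairs with both β3 and β5, moved as Itgb3 did with RANK-L but over a smaller range. Its CPM were 109.5, 145.9 and 177.0 in WT BMM and 664, 714 and 815 in WT OC. In null cultures they were 87.2, 112.1 and 135.0 for BMM and 101.1, 126.9 and 138.0 for OC, so that the null ranges overlap each other almost completely. RANK-L raised Itgav 4.97-fold in WT (log2 fold change 2.31, SE 0.12, edgeR adjusted p = 7.33e-16). In null cultures the change did not pass the test (0.15, SE 0.11, adjusted p = 0.392), and the responses differed by -2.16 (SE 0.16, adjusted p = 6.09e-12). Null OC held 5.89-fold less Itgav than WT OC (-2.56, SE 0.08, adjusted p = 5.70e-14). In BMM the difference was -0.38 (SE 0.13, adjusted p = 0.0209), with overlapping ranges, and without WT BMM replicate 5 it was -0.33 and no longer past the threshold.

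The αv chain was higher in null OB, where all 6 libraries (209.6, 233.0 and 248.6 CPM) lay above all 6 of WT OB (120.6, 141.0 and 148.3 CPM). The rise was 1.68-fold (log2 fold change 0.75, SE 0.07, edgeR adjusted p = 5.41e-06), and 0.47 with the length and GC offset, still past the threshold. WT OB and WT BMM held about the same Itgav (log2 fold change -0.08, SE 0.10, adjusted p = 0.453), and the offset turned that value to 0.16. WT OB held 5.18-fold less than WT OC (adjusted p = 6.27e-15).

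Itgb5, the other β chain for αv, went the opposite way with RANK-L. Its CPM were 51.9, 61.1 and 65.9 in WT BMM and 20.2, 21.99 and 23.1 in WT OC, with no overlap. In null they were 49.0, 68.2 and 94.0 for BMM and 46.3, 52.1 and 69.1 for OC, with wide overlap. Itgb5 fell 2.78-fold with RANK-L in WT (log2 fold change -1.48, SE 0.13, edgeR adjusted p = 9.71e-11). In null cultures it did not pass the test (-0.30, SE 0.13, adjusted p = 0.109; -0.43 and past the threshold with the length and GC offset), and the responses differed by 1.18 (SE 0.18, adjusted p = 3.43e-06). Null OC held 2.57-fold more Itgb5 than WT OC (1.36, SE 0.10, adjusted p = 2.07e-09). The genotypes did not differ past the threshold in BMM (0.19, SE 0.14, adjusted p = 0.272) or in OB (-0.18, SE 0.07, adjusted p = 0.0721). With the length and GC offset the OB difference was -0.24 and passed it.

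The exchange of β5 for β3 can be read from the ratio of their TPM within a library. Itgb3 over Itgb5 had a median of 0.0998 in WT BMM (range 0.0738 to 0.190) and 7.18 in WT OC (5.37 to 8.52). In null the medians were 0.0416 in BMM and 0.0960 in OC. The ratio thus crossed 1 in the WT OC group only, and every other library of the 36 stayed below 1. In OB it had a median of 0.339 in WT (0.272 to 0.431) and 0.615 in null (0.513 to 0.853). All 5 comparisons of this ratio passed a two-sided exact permutation test of 6 against 6 libraries, each with p = 0.00216, the smallest that test can give (0.00333 adjusted over 20 ratio tests). A short Itgb5 transcript of 265 bases, with few counts, made up 29.0% of Itgb5 TPM but 1.13% of its counts in WT OC. Counting only transcripts of at least 1000 bases, the WT OC median was 11.5 and the null OC median 0.107.

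**Figure D2:**
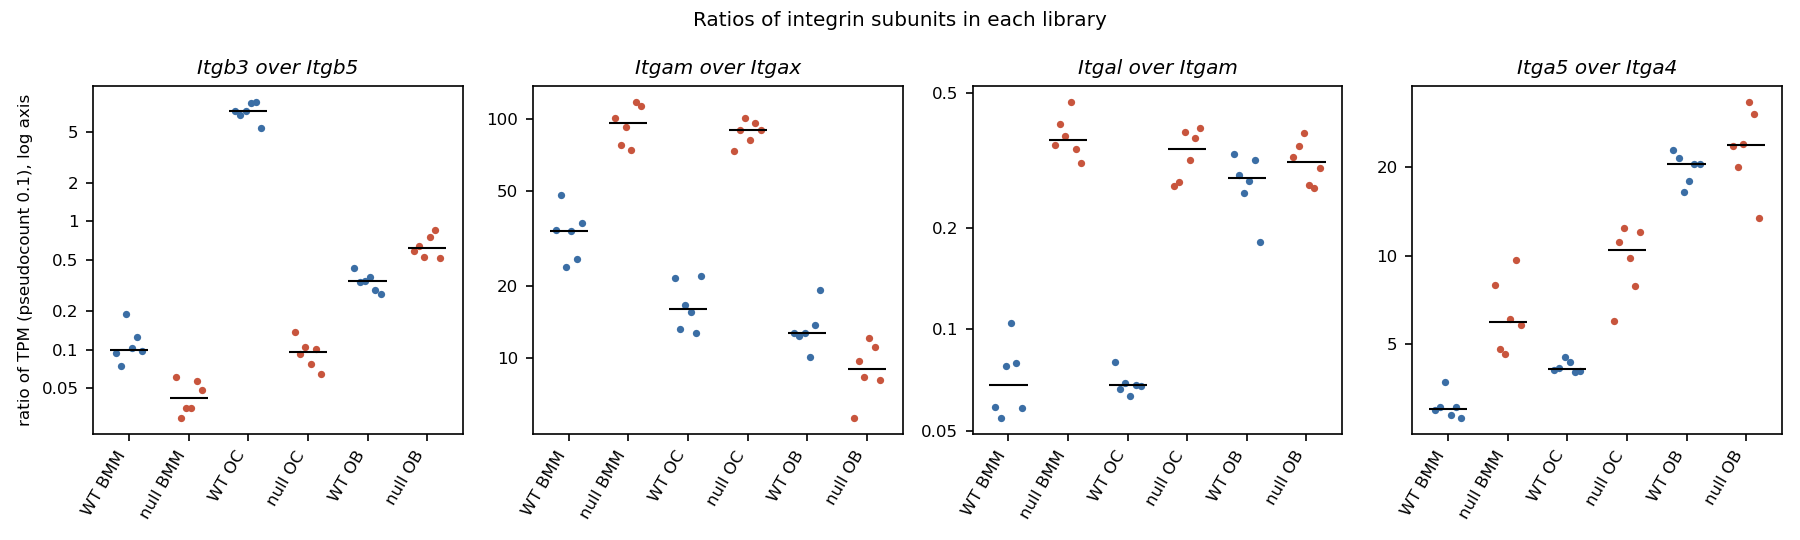
TPM ratios of paired or exchanged subunits within each library, on log axes (points are libraries, black lines medians). Itgb3 over Itgb5 is above 1 in WT OC (5.37 to 8.52) and below 1 in all other groups, and Itgal over Itgam is higher in null than in WT for BMM and OC.

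Itgam, the αM chain of Mac-1, was strongest in WT BMM. CPM were 471, 486 and 524 there and 204, 240 and 278 in WT OC, without overlap. In null they were 246, 355 and 447 for BMM and 274, 364 and 495 for OC. Itgam fell 2.06-fold with RANK-L in WT (log2 fold change -1.05, SE 0.12, edgeR adjusted p = 4.13e-08). The null response did not pass (0.15, SE 0.12, adjusted p = 0.431), and the responses differed by 1.20 (SE 0.17, adjusted p = 2.00e-06). Null macrophages had less Itgam than WT macrophages (-0.50, SE 0.11, adjusted p = 0.00101, no overlap), whereas null OC had more than WT OC (0.68, SE 0.12, adjusted p = 1.23e-04, ranges overlapping at their edges). Of 10 macrophage markers, 8 were also lower and 1 was higher in null BMM, against 25.4% and 27% of all genes. The part of these markers in the Itgam difference was not tested. OB cultures held 55.3 to 85.7 CPM in WT and 65.7 to 75.5 in null, and did not differ past the threshold (-0.06, SE 0.08, adjusted p = 0.599).

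Itgax, the αX chain (CD11c, a marker of dendritic cells and some macrophages), was the scarcest of the 10 per length in all groups but WT BMM and had 31 to 339 counts per library. Its CPM were 9.23, 12.3 and 19.1 in WT BMM and 9.20, 13.2 and 15.3 in WT OC. Null BMM had 2.45, 2.92 and 3.28, and null OC had 2.33, 3.31 and 5.60, so that every null library lay below every WT library of the same culture. The null level was 4.59-fold lower in BMM (log2 fold change -2.20, SE 0.17, edgeR adjusted p = 2.61e-08) and 3.41-fold lower in OC (-1.77, SE 0.20, adjusted p = 6.14e-07). RANK-L did not move Itgax past the threshold in WT (-0.09, SE 0.18, adjusted p = 0.671) or in null (0.35, SE 0.20, adjusted p = 0.255).

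In OB cultures Itgax was higher in null, at 4.60, 6.46 and 10.1 CPM against 3.00, 4.54 and 5.5 in WT, with overlap. The difference of 0.60 (SE 0.19, edgeR adjusted p = 0.0261) did not pass without WT OB replicate 6 (0.51), without null OB replicate 1 (0.45) or without null OB replicate 3 (0.55), nor with the length and GC offset (0.48). It differed from the genotype effect in BMM by 2.82 (SE 0.28, adjusted p = 2.08e-10). Of 8 dendritic cell markers, 3 could be tested in BMM and 2 of them were higher in null, against 27% of all genes. The summed level of the 8 was 2.60 to 3.62 CPM in WT BMM and 3.70 to 5.10 in null BMM. In OC the sum went the other way, at 5.09 to 6.75 CPM in WT and 2.65 to 5.13 in null, overlapping at the edges. Of 3 tested in OC, 1 was higher and 1 lower in null, against 32.4% and 33.1% of all genes. In OB the same markers summed to 3.34 to 6.60 CPM in WT and 6.97 to 9.13 in null, without overlap. There 2 of 3 tested were higher in null, against 15.5% of all genes. The part of these markers in the Itgax difference was not tested.

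Itgal, the αL chain of LFA-1, was higher in null macrophages and RANK-L cultures by the largest factor of any of the 10 genes. CPM were 30.8, 35.6 and 53.9 in WT BMM and 120.3, 132.4 and 153.2 in null BMM. With RANK-L they were 15.2, 17.6 and 20.2 in WT and 108.4, 133.0 and 141.4 in null. The genotypes were apart in all libraries of both cultures. Null exceeded WT 3.46-fold in BMM (log2 fold change 1.79, SE 0.13, edgeR adjusted p = 2.23e-08) and 7.41-fold in OC (2.89, SE 0.09, adjusted p = 4.95e-14). Itgal fell 2.21-fold with RANK-L in WT (-1.14, SE 0.12, adjusted p = 2.67e-09), while the null value was -0.03 (SE 0.11, adjusted p = 0.883), and the responses differed by 1.11 (SE 0.16, adjusted p = 1.85e-06). OB cultures had 13.6 to 25.4 CPM in WT and 18.3 to 30.4 in null (0.18, SE 0.17, adjusted p = 0.452). Markers of lymphocytes, which also carry LFA-1, summed to at most 8.55 CPM in any BMM or OC library. Only 1 of these 8 markers, Cd4, had a mean of 1 CPM or more there. The part of lymphocytes or of other cells in the Itgal difference was not tested.

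Itgb2, the β2 chain common to the 3 α chains above, was higher in null macrophages and RANK-L cultures. It held 980 to 1101 CPM in WT BMM, 1211 to 1353 in null BMM, 894 to 996 in WT OC and 1240 to 1567 in null OC. Null libraries lay above WT libraries in both cultures, by 1.25-fold in BMM (log2 fold change 0.32, SE 0.05, edgeR adjusted p = 1.20e-04) and 1.48-fold in OC (0.57, SE 0.06, adjusted p = 2.44e-07). The fall with RANK-L in WT was small (-0.16, SE 0.06, adjusted p = 0.0175) and did not pass with the length and GC offset (-0.08). That offset also ended the difference between the RANK-L responses (0.26, SE 0.08, adjusted p = 0.00831, and 0.10 with the offset). OB libraries held 169 to 221 CPM in WT and 164 to 197 in null (-0.12, SE 0.07, adjusted p = 0.194).

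The α chains of the β2 family therefore stood in different proportions in the 2 genotypes. Itgal over Itgam in TPM had a median of 0.0684 in WT BMM and 0.362 in null BMM, and 0.0683 in WT OC and 0.343 in null OC, with no overlap between genotypes (exact permutation p = 0.00216, adjusted 0.00333, in each culture). Itgam over Itgax had medians of 34.1 in WT BMM and 96.2 in null BMM, and 16.1 in WT OC and 89.9 in null OC (the same exact p in each). RANK-L did not shift Itgal over Itgam past the threshold in WT (exact permutation p = 0.872) or in null (p = 0.223). In OB the first ratio did not differ by genotype (exact permutation p = 0.206), while Itgam over Itgax was lower in null, 9.06 against 12.8 (exact p = 0.0130, adjusted 0.0186).

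Itga4, the α4 chain and the gene with both seed matches, was lower in null BMM and OC. CPM were 68.8, 92.1 and 113.2 in WT BMM, 56.97, 70.9 and 75.8 in null BMM, 96.5, 111.1 and 121.0 in WT OC, and 58.0, 59.3 and 66.9 in null OC. The OC genotypes were apart and the BMM genotypes overlapped. The log2 fold changes were -0.43 in BMM (SE 0.13, edgeR adjusted p = 0.0117) and -0.81 in OC (SE 0.07, adjusted p = 1.46e-08). RANK-L did not move Itga4 past the threshold in WT (0.24, SE 0.11, adjusted p = 0.0573; 0.0488 by DESeq2) or in null (-0.14, SE 0.11, adjusted p = 0.419). Those responses differed by -0.37 (SE 0.15, adjusted p = 0.0417), a call lost in 15 of 24 fits without 1 library and with the offset (-0.21).

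In OB cultures Itga4 was scarce and a little higher in null, with 23.9, 27.3 and 31.7 CPM against 19.3, 21.7 and 25.0 in WT (log2 fold change 0.33, SE 0.09, edgeR adjusted p = 0.00882). Its transcripts were longer than those of 98.2% of genes, and across all 13607 genes tested in OB the genotype difference rose with length (Spearman 0.576 across genes, which are not replicates). With the length and GC offset the Itga4 value turned to -0.05 and did not pass. The same trend was -0.198 in BMM and 0.001 in OC.

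Itga5, the α5 chain, rose with RANK-L by like amounts in both genotypes. CPM were 157, 193 and 248 in WT BMM, 251, 280 and 314 in WT OC, 173, 249 and 344 in null BMM, and 300.5, 352 and 506 in null OC. The rise was 0.54 in WT (SE 0.15, edgeR adjusted p = 0.00335) and 0.55 in null (SE 0.15, adjusted p = 0.0201). The difference of the responses was 0.02 (SE 0.21, adjusted p = 0.963) and turned to -0.28 with the offset. The null rise did not pass without null BMM replicate 2 (0.49), null BMM replicate 3 (0.46) or null OC replicate 3 (0.45). Itga5 was higher in null OC (0.43, SE 0.11, adjusted p = 0.00248), but not past the threshold with the offset (0.25). In BMM the call (0.42, SE 0.17, adjusted p = 0.0451) was lost in 9 of 12 fits without 1 library.

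Null OB held 257, 393 and 528 CPM of Itga5 against 240.0, 264 and 361 in WT OB, with overlap (log2 fold change 0.52, SE 0.16, edgeR adjusted p = 0.0249). That call was lost in 4 of 12 fits without 1 library (WT OB replicates 3, 4 and 6 and null OB replicate 5, with values from 0.47 to 0.48) and with the offset (0.33). Itga5 over Itga4 in TPM had medians of 3.03 in WT BMM, 5.96 in null BMM, 4.14 in WT OC and 10.5 in null OC. Genotype separated both cultures without overlap (exact permutation p = 0.00216 each, adjusted 0.00333). With RANK-L the ratio was higher in WT (log2 difference 0.45, the same exact p) and in null (0.61, exact p = 0.0325, adjusted 0.0433), the latter lost in 8 of 12 tests without 1 library. In OB the ratio was far higher, 20.5 in WT and 23.7 in null, and did not differ by genotype (exact permutation p = 0.294).

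Itgb1, the β1 chain, did not differ by genotype past the threshold in any culture. It held 349 to 679 CPM in WT BMM, 222 to 500 in null BMM, 319 to 601 in WT OC and 416 to 574 in null OC. The log2 fold changes were -0.32 in BMM (SE 0.22, edgeR adjusted p = 0.236), 0.08 in OC (SE 0.13, adjusted p = 0.621) and 0.12 in OB (SE 0.11, adjusted p = 0.438). Neither RANK-L response passed, at 0.09 in WT (SE 0.19, adjusted p = 0.704) and 0.50 in null (SE 0.19, adjusted p = 0.0849; 0.0321 by DESeq2). OB libraries held the most, 583 to 918 CPM in WT and 706 to 983 in null.

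**Figure D3:**
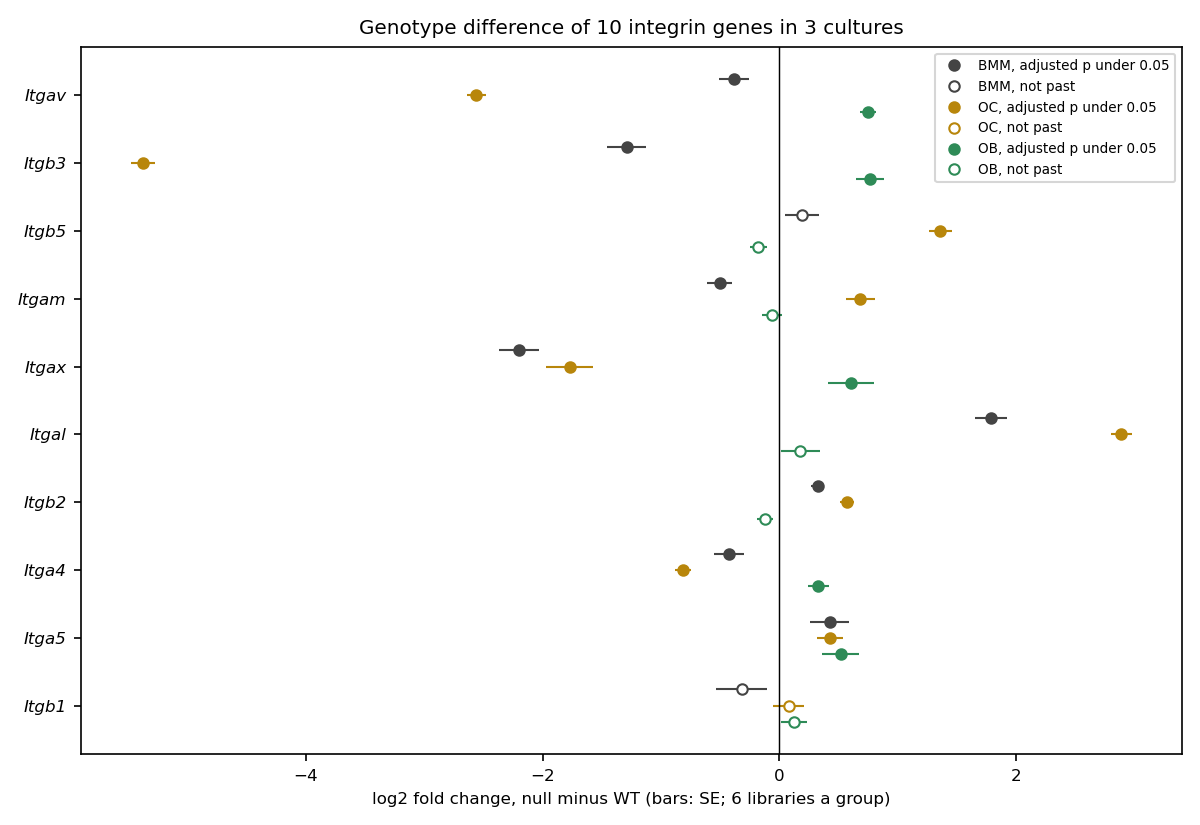
Genotype difference of the 10 genes in each culture as log2 fold change, null minus WT, with bars of 1 SE (filled points are past an adjusted p of 0.05). Itgb3 and Itgav lie far to the left in OC and to the right in OB, and Itgal lies to the right in BMM and OC.

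By genotype, 8 of the 10 genes passed in BMM (3 higher, 5 lower), where 52.3% of the 11925 genes tested did (27.0% higher, 25.4% lower). In OC 9 passed (5 higher, 4 lower) against 65.6% of 12121 genes (32.4% higher, 33.1% lower). In OB 5 passed, each of them higher, against 32.5% of 13607 genes (15.5% higher, 16.9% lower). The median log2 fold change of the 10 genes was -0.35 in BMM, 0.25 in OC and 0.25 in OB, against 0.02, -0.03 and 0.00 over all genes. Libraries of the 2 genotypes did not overlap for 5 of the 10 in BMM (30.9% of all genes), 7 in OC (45.4%) and 2 in OB (15.8%), the latter Itgav and Itgb3. With the length and GC offset 3 of the 10 passed in OB: Itgav and Itgb3 higher and Itgb5 lower. The count was also 3 without WT OB replicate 6.

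**Figure D4:**
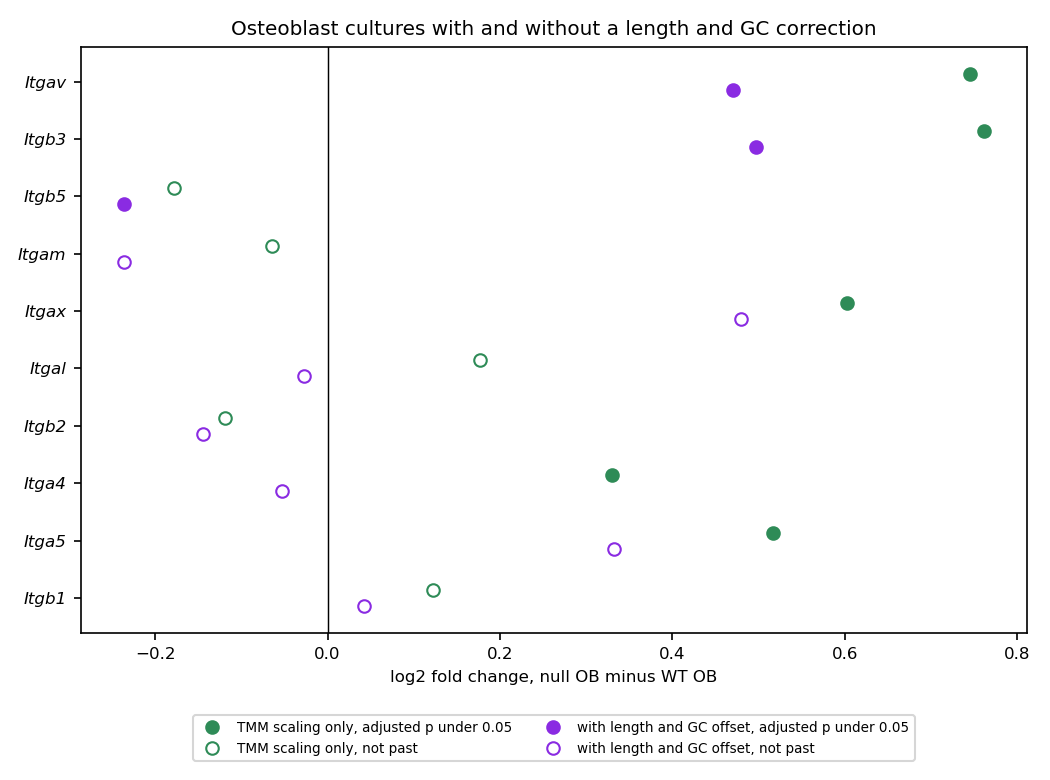
Genotype difference in OB cultures as log2 fold change, null minus WT, from the fit with TMM scaling only (green) and from the fit with the length and GC offset (purple); filled points are past an adjusted p of 0.05. Itgav and Itgb3 stay past it at 0.47 and 0.50, whereas Itgax, Itga4 and Itga5 do not.

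Genotype effects differed between cultures for most of the genes. OB against OC, 8 of the 10 differed, 4 in each direction (55.2% of all genes, 27.8% higher and 27.4% lower in OB). OB against BMM, 5 were higher and 2 lower (45.9% of all genes, 21.6% higher and 24.3% lower). With the length and GC offset Itga4 (0.26) and Itgam (0.14) no longer differed past the threshold between OB and BMM, while Itgb5 (-0.48) did. The genotype effect on Itgal was lower in OB than in OC (log2 difference -2.70, SE 0.20, edgeR adjusted p = 4.68e-14). For Itga5 and Itgb1 neither difference passed. These comparisons use the same OB libraries.

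**Figure D5:**
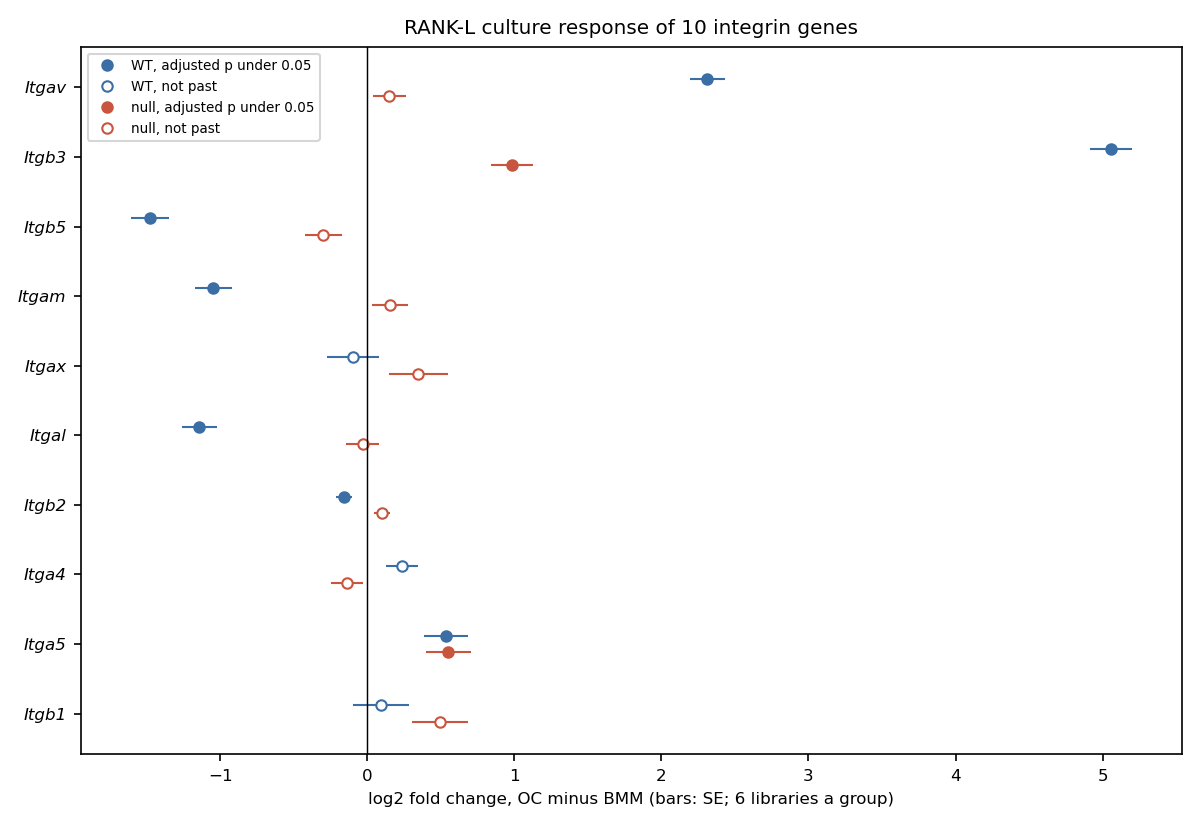
Response to RANK-L as log2 fold change, OC minus BMM, in WT (blue) and null (red), with bars of 1 SE (filled points are past an adjusted p of 0.05). In WT the values run from 5.06 (Itgb3) to -1.48 (Itgb5), and in null only Itgb3 (0.99) and Itga5 (0.55) pass.

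With RANK-L, 7 of the 10 genes passed in WT (3 higher, 4 lower), against 60.5% of 12661 genes (30.4% higher, 30.1% lower). In null 2 passed, both higher, against 12.9% of genes (6.78% higher, 6.07% lower). The responses differed between genotypes for 7 of the 10, 4 higher and 3 lower in null (51.4% of all genes, 25.3% higher and 26.1% lower). BMM and OC libraries did not overlap for 6 of the 10 in WT (50.3% of all genes) and for Itgb3 alone in null (2.23%). The null count was 1 without null BMM replicate 2 or 3 or null OC replicate 3, and 4 without null BMM replicate 5. Over all genes the null count went from 1628 to 840, 810, 948 and 1046 without null BMM replicates 2, 3 and 4 and null OC replicate 3.

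Between WT cultures, most of the integrin genes differed between OB and the marrow-derived cells, as did most of all genes tested. Against BMM, 4 genes were higher in OB and 5 lower (81.6% of 13660 genes, 44.2% higher and 37.4% lower). Against OC 2 were higher and 6 lower (82.7% of genes, 44.6% higher and 38.1% lower). Taken without direction, these counts are close to the shares over all genes. By direction, fewer of the 10 were higher and more were lower in OB than the shares over all genes, mainly against OC. The median log2 fold change of the 10 genes was -0.499 against BMM and -1.575 against OC, where it was 0.082 over all genes in each. Itgav did not differ past the threshold between OB and BMM (edgeR adjusted p = 0.453). Nor did Itga5 (edgeR adjusted p = 0.791) or Itgal (0.169) between OB and OC. All 4 genes of the β2 family were lower in OB than in BMM, Itgam 6.83-fold (log2 fold change -2.77, SE 0.09, edgeR adjusted p = 8.82e-18) and Itgb2 5.25-fold (-2.39, SE 0.06, adjusted p = 9.71e-21). Itga4 was 4.12-fold lower in OB than in BMM (-2.04, SE 0.12, adjusted p = 2.10e-12). Itgb1 was higher in OB by 0.79 (SE 0.17, adjusted p = 5.04e-04), and Itgb3 by 2.04 (SE 0.14, adjusted p = 3.21e-11). Itgb5 was 3.89-fold higher in OB than in OC (1.96, SE 0.08, adjusted p = 6.81e-17). These WT OB libraries also hold the macrophage and osteoclast transcripts given above, and their part in the β2 and β3 levels was not tested.

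Per length, the order of the 10 genes within a culture was led by Itgb2 in BMM and OC and by Itgb1 in OB. Median TPM of Itgb2 were 547 in WT BMM, 611 in null BMM, 527 in WT OC and 688 in null OC. Itgb1 led with 329 in WT OB and 420 in null OB. Itgav ranked second in WT OC at 411 TPM, but 54.7% of that came from 1 transcript of 463 bases that held 5.45% of the gene's counts, and transcripts of at least 1000 bases gave 157 TPM, the third rank. TPM of Itgav should be read with that share in mind.

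Other integrin genes were read from a list of 17, of which 7 were tested in BMM, 9 in OC and 13 in OB. By genotype 4 rose and 2 fell in BMM, 4 rose and 3 fell in OC, and in OB 5 rose and 8 did not pass. Over all genes 52.3%, 65.6% and 32.5% passed in BMM, OC and OB. Itga7 (0.86), Itgb8 (1.03) and Itgb7 (1.44) were among those that rose in null OB. Neither these values nor the OB count of this list were checked with the length and GC offset. Itgb7, a partner of α4, had medians of 2.32 CPM in WT BMM and 55.7 in WT OC, and rose by 4.70 with RANK-L in WT (SE 0.15, edgeR adjusted p = 4.43e-20). In null it was at 12.7 CPM in BMM and 17.3 in OC, and the responses differed by -4.35 (SE 0.19, adjusted p = 2.01e-16). Itga6, the α6 chain of laminin receptors, fell by 2.08 with RANK-L in WT (adjusted p = 1.94e-18), from a median of 170 CPM to 40.5, and was already lower in null BMM at 59.7 CPM (-1.57, SE 0.07, adjusted p = 2.19e-11). Itga11, a collagen receptor chain of stromal cells, stood at 414 to 533 CPM in WT OB and at most 0.436 CPM in any WT BMM or OC library. It was higher in null BMM, at 0.734 to 5.33 CPM (3.09 in log2 units, SE 0.46, edgeR adjusted p = 3.44e-05), and in null OC, at 1.12 to 3.92 CPM (5.44, SE 0.50, adjusted p = 5.77e-08), beside the higher osteoblast gene sums given above, whose part was not tested. Itgad, next to Itgax on chromosome 7, reached at most 0.282 CPM in any library.

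Of 16 ligand genes, 9 rose and 3 fell in null BMM among 13 tested, 9 rose and 3 fell in null OC among 12, and 6 rose and 3 fell in null OB among 13. Their median log2 fold changes were 1.45, 1.76 and 0.21, against 0.02, -0.03 and 0.00 over all genes, of which 52.3%, 65.6% and 32.5% passed. Fn1, Postn, Thbs1, Tnc and Vcam1, which stromal cells also make, were among those that rose in null BMM and null OC, with medians there of 5.77 to 27.6 CPM. The osteoblast gene sum, mainly Col1a1 and Col1a2, was higher in the same libraries. Its medians were 19.8 CPM in WT BMM, 73.8 in null BMM, 14.8 in WT OC and 87.8 in null OC. The part of these genes was not tested. Icam1, a ligand of LFA-1, was at 51.4 to 57.04 CPM in WT BMM and 130.1 to 149.2 in null BMM (1.39, SE 0.06, edgeR adjusted p = 1.43e-11). C3, the complement protein whose fragment Mac-1 binds, went from a median of 9.74 CPM in WT BMM to 306 in null BMM (5.03, SE 0.16, adjusted p = 2.24e-12). Spp1, which encodes osteopontin, was lower in null BMM (-1.53, SE 0.11, adjusted p = 6.48e-09) and higher in null OC, at 1782 to 3265 CPM against 1201 to 1655 in WT OC (0.71, SE 0.12, adjusted p = 9.16e-05). Edil3, an RGD protein that binds αvβ3, rose by 3.31 with RANK-L in WT (SE 0.10, adjusted p = 2.24e-20), to a median of 209 CPM, and stood at 34.3 CPM in null OC. In null OB, Fn1 (fibronectin) had a median of 7002 CPM against 3612 in WT OB (0.95, SE 0.09, adjusted p = 5.66e-06). That Fn1 difference and the OB counts of the ligand genes were not checked with the length and GC offset.

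Of 23 activator and adaptor genes, 7 rose and 8 fell in null BMM among 22 tested, 9 rose and 7 fell in null OC, and 7 rose and 2 fell in null OB, the latter 2 among 23 tested each. Over all genes 52.3%, 65.6% and 32.5% passed in the 3 cultures. Src, the kinase that acts below αvβ3 in osteoclasts, had CPM of 112.0, 118.9 and 123.6 in WT OC and 6.91, 8.93 and 10.9 in null OC (log2 fold change -3.73, SE 0.10, edgeR adjusted p = 1.01e-14). In BMM it was the other way round, at 0.349 to 1.84 CPM in WT and 4.79 to 11.2 in null. Bcar1 (p130Cas), a Src substrate at adhesion sites, was also lower in null OC (-2.09, SE 0.14, adjusted p = 7.17e-10). Tln1, the talin that switches integrins on, was higher in null OB (0.48, SE 0.07, adjusted p = 1.68e-04). Neither that value nor the OB counts of this list were checked with the length and GC offset.

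Genes whose log2 CPM followed each integrin most closely over the 36 libraries are given as a description, since libraries of a group share their culture. Itgb2 ran closest with Fermt3 (kindlin-3, the blood-cell activator of integrins) at a Pearson r of 0.997 and Myo1g at 0.994. Itgam ran with Inpp5d (0.990) and Dock2 (0.990), and Itgal with Gpr84 (0.983) and Irak3 (0.980). Itgb3 ran with Slc9b2 (0.981) and Gars (0.981), and Itgav with Xpr1 (0.973) and Slc4a2 (0.971). Itgb5 ran with Marcks (0.960) and Lgals1 (0.958), Itga4 with Specc1 (0.970), and Itgb1 with Kctd5 (0.934) and Cdk16 (0.930). Itgax (Gpr183, 0.892) and Itga5 (Cnnm4, 0.860) had no companion above 0.9. Among the 10 genes themselves, Itgam and Itgb2 had the highest r (0.958), Itgav and Itgb3 had 0.893, and Itgav and Itgb5 had -0.845.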

How the data were processed

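RNA-seq libraries of 36 mouse cultures (6 groups of 6, from the labels) were made from total RNA with a low-input kit, per the labels' protocols. Per the file headers, the authors deposited estimated counts and TPM per Ensembl transcript. The submitters' processing notes name kallisto and DESeq2 without versions and the build GRCh38, although the identifiers are mouse; other settings, and strand, are not given in the sources used here. Transcripts were matched to GENCODE M21 (GRCm38; 97.5% of 88198). Unmatched ones held 0.629% to 0.974% of counts and were left out. Estimated counts were summed per gene and rounded.

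Genes were filtered with filterByExpr, TMM-scaled and tested in edgeR 4.0.16 (quasi-likelihood, robust; R 4.3.3) on all genes, with Benjamini-Hochberg adjustment and a threshold of 0.05. Genotype was tested on the 12 libraries of a culture, RANK-L and its interaction on 24, WT cultures on 18 and culture by genotype on 36. Ratios of deposited TPM (pseudocount 0.1) were tested by exact permutation (scipy 1.17.1). The steps were tested on simulated data. Genes changed by 1 log2 unit were recovered at 100% in the BMM genotype fit and 97% in the RANK-L interaction. For a change of 0.585 these shares were 84% and 34%, so differences of that size can be missed. Levels are ranges over 6 libraries, and depth was 14118972 to 26347581 counts.

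All 10 integrins are named; from each list the text draws on the 3 genes of smallest adjusted p per comparison (mean CPM 1 or more). Each integrin's 2 best correlated genes come from those with a mean CPM of 10 or more; Postn, Vcam1, Itgad, and values of a named gene in further comparisons were added after seeing them. For Itga4 1 of these genes is not reported here. The members and lists were chosen with earlier results of these data known. The fits were repeated with DESeq2 1.42.0, with RLE scaling, without the filter or with a minimum mean count of 10, with a replicate block, after taking out each library's length and GC trend (lowess span 0.3), on all 36 libraries together, with each library left out in turn, and for ratios CPM and pseudocounts of 1 and 0.01. TPM from transcripts of at least 1000 bases was chosen after seeing the data.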

Additional observations from a re-analysis of the deposited data

Results flagged for a closer look

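In 3 of 60 groups of 6 libraries tested, 1 library stood apart from the other 5, where chance alone flags about 1 in 20 groups. Itgb3 was at 15.0 CPM in null OC replicate 1, Itgam at 75.5 CPM in null OB replicate 3 and Itgb2 at 996 CPM in WT OC replicate 4.

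Of 30 tests of a difference between responses, 22 passed (edgeR adjusted p under the threshold of 0.05). Over all genes 51.4% passed for the RANK-L responses, 55.2% for OB against OC and 45.9% for OB against BMM. The RANK-L response in null minus that in WT was -4.07 for Itgb3, -2.16 for Itgav, -0.37 for Itga4, 0.26 for Itgb2, 1.11 for Itgal, 1.18 for Itgb5 and 1.20 for Itgam, in log2 units. The genotype effect in OB minus that in OC was 6.15 for Itgb3, 3.32 for Itgav, 2.39 for Itgax, 1.16 for Itga4, -0.67 for Itgb2, -0.73 for Itgam, -1.52 for Itgb5 and -2.70 for Itgal. The genotype effect in OB minus that in BMM was 2.82 for Itgax, 2.07 for Itgb3, 1.15 for Itgav, 0.77 for Itga4, 0.46 for Itgam, -0.43 for Itgb2 and -1.60 for Itgal.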

How the results depend on the processing

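Over the other settings, a gene's sign and call were the same as reported 733 times, with 21 calls lost, 11 gained and 15 signs turned. Over fits without 1 library they were the same 1377 times, with 35 calls lost, 12 gained and 16 signs turned, and the cause was not tested. With the length and GC offset (and with the offset and the replicate block together), the OB genotype count over all genes went from 4420 to 2023 (1758), and the integrin count from 5 to 3 with the offset. Signs turned for Itga4 (-0.0533, -0.0557) and Itgal (-0.0269, -0.0142) in OB by genotype, Itgav in OB against BMM (0.16, 0.17), Itgax with RANK-L in WT (0.0156, 0.0224), Itga5 in the RANK-L interaction (-0.28, -0.30), Itga5 in the OB against BMM genotype difference (-0.18, -0.18) and Itgb1 in that of OB against OC (-0.11, -0.11). In a single fit of all 36 libraries Itga5 in OB against OC was -0.0166. Offset and block together put the null RANK-L count at 1037 genes and 1 integrin. A pseudocount of 1 TPM turned Itgal over Itgam with RANK-L in WT to 0.064 and Itgam over Itgax with RANK-L in null to 0.016. Leaving out 1 library at a time, the integrin count ranged from 3 to 6 in OB by genotype and from 1 to 4 with RANK-L in null, and the null RANK-L count over all genes from 810 to 2143. Values that changed sign ranged from -0.0672 to 0.0722 (Itga5, OB against OC), -0.0258 to 0.14 (Itgb1, OC genotype), -0.18 to 0.0438 (Itgax, RANK-L in WT), -0.085 to 0.12 (Itga5, RANK-L interaction), -0.0642 to 0.0135 (Itgal, RANK-L in null) and -0.10 to 0.086 (Itgal over Itgam, RANK-L in WT). Replicate numbers did not pair the samples (same-number correlations from -0.131 to 0.103). The replicate block lost the Itga5 call in BMM (0.40, adjusted p = 0.0986 by edgeR), gained Itga4 with RANK-L in WT (0.25, adjusted p = 0.0272), left 4085 genes in OB and 1243 in the null RANK-L response, and left 13 of 20 ratio tests past the threshold, against 15 without it. The 2 ratio calls lost were Itgam over Itgax by genotype in OB and Itga5 over Itga4 with RANK-L in null. Depth limits mainly Itgax, at 31 to 339 counts a library.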
